A study of Mus musculus with 8 samples.

Results

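The 10 genes described here are nuclear genes whose proteins make NADPH in the mitochondrion, pass on its electrons or, for Sod2, remove superoxide. They are Nnt, Idh2, Me3, Txn2, Txnrd2, Prdx3, Gsr, Glrx2, Sod2 and Gpx4. They were picked by symbol from a table of 34094 gene records, of which 26135 had enough reads to be tested, and all 10 members were among these. Nnt was chosen because its measured difference between the genotypes was already known, and the other 9 were chosen by function. The contrast between genotypes is therefore given for the members as a description, and no test is read from it. The table also holds a second record of Nnt that carries no symbol. That record is not found by symbol, and the account of Nnt turns on it.

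The study profiled messenger RNA from the hippocampal CA1 region of C57BL/6 mice, 2 months old, in 4 wild-type (WT) libraries and 4 libraries from conditional knockout (cKO) mice, which the labels also describe as a Brpf1 knockdown. Brpf1 encodes a scaffold subunit of histone acetyltransferase complexes. The sources used here name neither the substrain (J or N) nor the driver of the recombinase nor the deleted exons. The protocol speaks of 3 pairs of mice although there are 4 libraries in each group, and which mouse gave which library is not stated, so the spread between libraries may be partly technical.

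NADPH is the reducing currency of the mitochondrial matrix. Nicotinamide nucleotide transhydrogenase, the product of Nnt, sits in the inner membrane and uses the proton gradient to pass hydride from NADH to NADP+, while NADP-dependent isocitrate dehydrogenase (Idh2) and malic enzyme (Me3) make NADPH in the matrix. The NADPH is spent by a thioredoxin chain (Txnrd2, Txn2, Prdx3) and a glutathione chain (Gsr, Glrx2, Gpx4), which remove peroxides formed in part by the superoxide dismutase Sod2. In mice Nnt is also known as a substrain marker: C57BL/6J carries an in-frame deletion of several Nnt exons that leaves no functional protein, C57BL/6N does not, and the mouse reference genome was built from C57BL/6J.

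Reads on genes numbered 42346644 to 49897832 in the WT and 40330226 to 46559795 in the cKO libraries. Values are given as normalized reads, that is, the reads of a record over its library's size factor. Brpf1 stood at 1358, 1451, 1473 and 1380.1 in WT 1 to 4 and at 848, 1032, 897 and 1004.5 in cKO 1 to 4, so every cKO library was below every WT library. Summed CA1 pyramidal markers ranged from 14489 to 22183 in WT and from 16123 to 23061 in cKO, and dentate granule markers from 18503 to 22650 and from 16168 to 21378, so markers of the neighbouring dentate gyrus were present in tissue whose source label is CA1 and whose titles say hippocampus. Markers of choroid plexus, which lies beside the hippocampus, differed most between libraries: their sum was 12510, 241287, 35990 and 113994 in WT 1 to 4 and 57779, 22929, 71250 and 19525 in cKO 1 to 4, and all 13 had counts in some library. In bulk tissue, fewer cells of a type and less RNA per cell cannot be told apart.

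Nnt lies on mouse chromosome 13, and the annotation of GENCODE M21 (GRCm38) gives it 2 gene records on the same strand. The record named Nnt in the table (ENSMUSG00000025453) has 5 transcripts, 3 of them protein-coding. The unnamed record (ENSMUSG00000116207) has 1 transcript, Nnt-206, with 17 exons and 3339 bases, and 100% of its exon bases lie inside the named record. Nnt-206 is contained base for base in Nnt-202 of the named record, which also has 17 exons and is 3464 bases long, and the coding sequences, 2508 bases with the stop codon, are identical. The first 60 coding bases of the pair, taken from the GENCODE M21 transcripts with the start codon in capitals, are shown because they make plain why a read from the coding part cannot be placed in either record by its sequence.
Nnt-202: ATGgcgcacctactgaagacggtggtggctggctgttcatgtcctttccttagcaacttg
Nnt-206: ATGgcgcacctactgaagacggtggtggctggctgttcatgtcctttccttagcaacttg

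The named Nnt record had 159, 142, 100.4 and 101.045 normalized reads in WT 1 to 4 and 729, 153, 1345 and 446 in cKO 1 to 4. The libraries cKO 1, cKO 3 and cKO 4 were far above all WT libraries, while cKO 2 lay inside the WT range. The group means were 126 ± 29.7 (SD, n = 4) in WT and 668 ± 509 (SD, n = 4) in cKO, a ratio of 5.32, and the difference of mean log2 values was 2.04 with a standard error (SE) of 0.59. In the authors' deposited table this record has a log2 fold change of 2.04, a p-value of 9.81e-05 and an FDR of 0.0236.

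The unnamed record had 637, 1061, 819.95 and 723 normalized reads in WT 1 to 4 and 804, 535, 0 and 986 in cKO 1 to 4. In every library of both genotypes except cKO 3 it held more reads than the named record. In cKO 3 no read was assigned to it, against 1231 reads in the named record. A count of 0 there allows up to 3.28 normalized reads. The authors' deposited table gives this record a log2 fold change of -2.47 with a p-value of 0.729 and an FDR of 0.987. This negative value rests on the 0 in cKO 3. The other cKO libraries, at 535 to 986, overlapped the WT range of 637 to 1061.

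Summed over both records, Nnt had 796, 1203, 920.4 and 824 normalized reads in WT 1 to 4 and 1534, 688, 1345 and 1433 in cKO 1 to 4. After summing, cKO 1, cKO 3 and cKO 4 were above every WT library and cKO 2 was below every WT library. The means were 936 ± 186 (SD, n = 4) and 1249.7 ± 383 (SD, n = 4), a ratio of 1.34. The log2 difference of the sum was 0.37 with an SE of 0.25. Leaving out each library in turn gave 0.25 (without cKO 1) to 0.64 (without cKO 2, SE 0.14). The omission of cKO 2, the lowest library, is thus the one that gave the highest value. The sum therefore differed by 1.34-fold between the group means where the named record alone differed by 5.32-fold.

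The share of Nnt reads in the named record was 20% in WT 1 (95% Wilson interval 17.3% to 23.0%), 11.8% in WT 2 (10.1% to 13.8%), 10.9% in WT 3 (9.12% to 13.0%) and 12.3% in WT 4 (10.3% to 14.5%). It was 47.6% in cKO 1 (44.99% to 50.1%), 22.2% in cKO 2 (19.2% to 25.5%), 100% in cKO 3 (99.7% to 100%) and 31.1% in cKO 4 (28.9% to 33.5%). The lowest cKO share lay above the highest WT share, though the intervals of cKO 2 and WT 1 overlapped. These intervals cover counting error only, since reads are not independent molecules. The named record was chosen with its cKO difference known, so nothing is read from the order of the shares. What sets the share in a library was not tested.

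**Figure D1:**
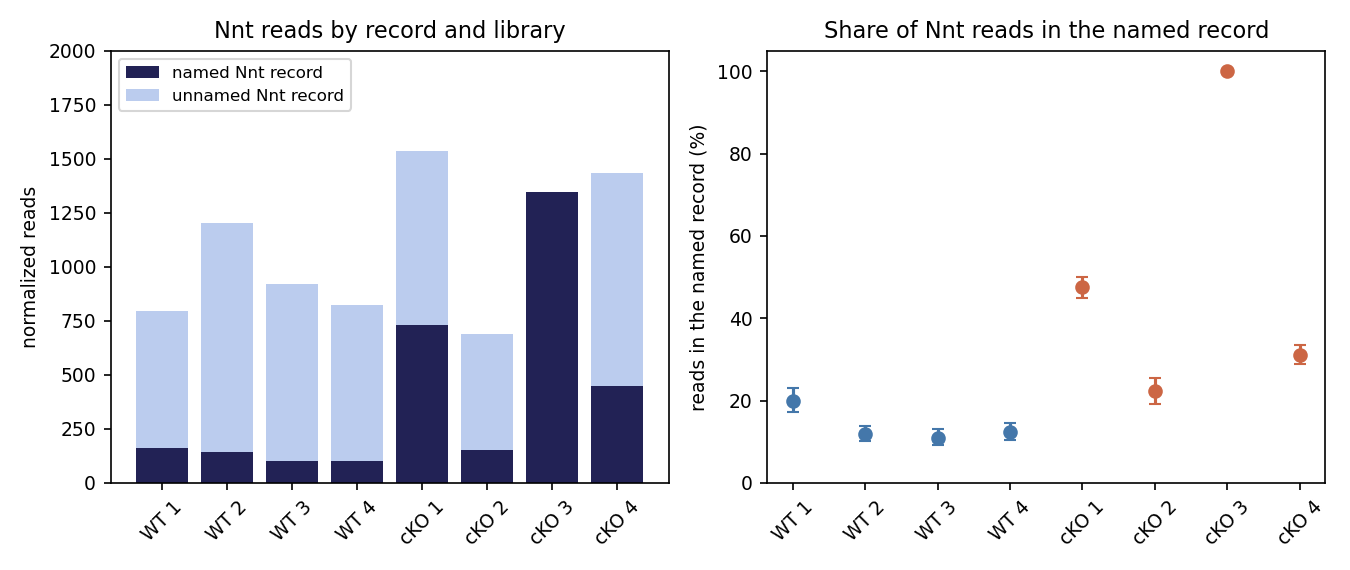
Left, normalized reads of the named (dark) and unnamed (light) Nnt record stacked for each of the 8 libraries; right, the percent of Nnt reads in the named record with 95% Wilson intervals (blue WT, orange cKO). The stacks reach 688 to 1534 normalized reads, while the dark part runs from 100.4 to 1345, and in cKO 3 it is the whole stack.

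Such splits were not particular to Nnt. Among all records, 23 pairs have 90% or more of one record's exon bases inside another on the same strand, with at least 200 normalized reads on average over the pair and at least 10% of them in each record, a search chosen after the Nnt values were seen. Nnt had the third widest range of shares, after Hist2h3c1 with Gm20634 and after Sept2, a septin gene, with an unnamed record. The share in the named Sept2 record was 9.53%, 100%, 17.2% and 68.6% in WT 1 to 4 and 14.6%, 43.2%, 96.9% and 100% in cKO 1 to 4, while the Sept2 sum varied only 1.37-fold over the 8 libraries. The widest Nnt share was 89.1 percentage points above the narrowest, against a median range of 28.2 points over the 23 pairs. In 2 of the 23 pairs the WT and cKO shares did not overlap: Nnt, whose values were already known, and Zbed6 with Gm38394. A drop to 0 in 1 library with at least 100 normalized reads in each of the others was seen in 7 of 34094 records, the unnamed Nnt record among them.

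Beside Nnt, the other 9 genes were close to level between genotypes. Their log2 differences ran from -0.06 (Gpx4) to 0.14 (Txnrd2), 7 of 9 were positive, and the median was 0.06, beside a median of -0.02 over the 26135 genes tested. The sign of 6 of the 9 changed when a library was left out or another setting was used, and that of Txnrd2, Gsr and Sod2 did not. None of the 9 had groups that did not overlap, where 4.92% of all genes tested had such groups. Only Nnt of the members has an FDR under 0.05 in the authors' deposited table, as 0.657% of its records have, and the other 9 have FDRs from 0.822 to 0.997. As Nnt was chosen on this contrast, nothing is read from this count.

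**Figure D2:**
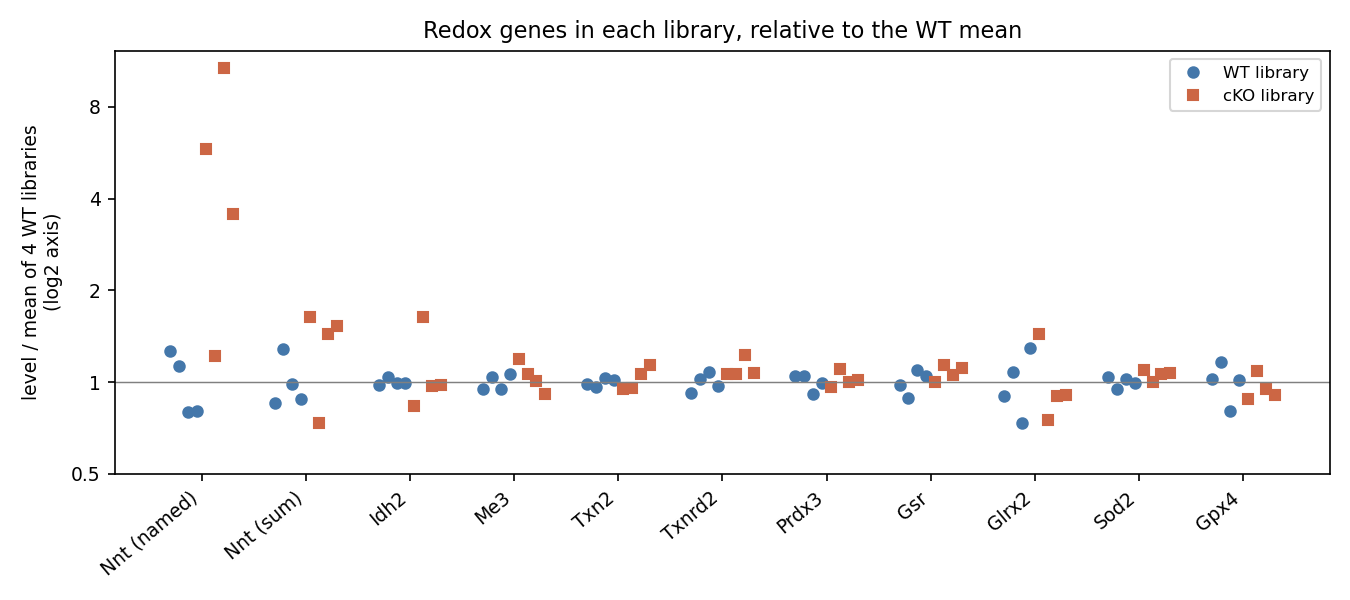
Level of each gene in each of the 8 libraries divided by its mean over the 4 WT libraries, on a log2 axis, with WT as circles and cKO as squares in the order 1 to 4. The named Nnt record spreads over 13.4-fold between libraries, and the other 9 genes spread over 1.16-fold (Sod2) to 1.96-fold (Glrx2).

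Of the other matrix enzymes that make NADPH, Idh2 had 1362, 1456, 1383 and 1390.45 normalized reads in WT 1 to 4 and 1165, 2279.9, 1355 and 1368 in cKO 1 to 4. The 4 WT libraries were within a narrow band and cKO 2, the library with the lowest Nnt sum, stood alone above all others. The log2 difference was 0.09 with an SE of 0.17, and it was -0.11 without cKO 2, so its sign rests on that library. Me3 had 2162, 2367, 2166 and 2412 in WT 1 to 4 and 2713, 2416, 2299 and 2076 in cKO 1 to 4, with overlapping groups and a log2 difference of 0.06 (SE 0.09). An antisense gene, A230065N10Rik, shares 569 exon bases with Me3 and had 19.5 to 56.1 normalized reads, few beside those of Me3. The sources used here do not state whether strand was used in counting.

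In the thioredoxin chain, electrons pass from NADPH through the selenoprotein Txnrd2 to thioredoxin 2 (Txn2) and on to the peroxidase Prdx3. Txn2 works through a pair of cysteines that form and release a disulfide, as does the glutaredoxin Glrx2, and the stretches that encode these pairs are shown, with the cysteine codons in capitals, because this pair is the site at which both proteins pass electrons on. Txnrd2 and Gpx4 carry selenocysteine, encoded by an in-frame TGA that would otherwise be read as a stop; the TGA is in capitals. All come from the GENCODE M21 transcripts.
Txn2: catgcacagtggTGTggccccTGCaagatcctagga
Glrx2: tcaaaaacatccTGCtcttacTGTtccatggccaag
Txnrd2: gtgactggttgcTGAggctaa
Gpx4: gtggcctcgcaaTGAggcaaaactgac

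Txn2 had 1843, 1801, 1923 and 1890.5 normalized reads in WT 1 to 4 and 1769.8, 1782, 1974 and 2123 in cKO 1 to 4. Its cKO libraries lay on both sides of the WT libraries, and the log2 difference was 0.03 (SE 0.08). Txnrd2, which has the selenocysteine next to the end of its protein as the sequence above shows, had 396, 441, 464 and 417 in WT 1 to 4 and 455, 455, 529 and 462 in cKO 1 to 4. The cKO libraries were in the upper part of the WT range apart from cKO 3, which was above it, and the log2 difference of 0.14 (SE 0.11) was the highest among the 9. Prdx3, the abundant matrix peroxiredoxin, had 3166, 3166, 2765 and 3005 in WT 1 to 4 and 2915, 3333, 3036 and 3068 in cKO 1 to 4, with a log2 difference of 0.03 (SE 0.08).

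In the glutathione chain, Gsr, which returns oxidized glutathione to its reduced form, had 1003, 904, 1116 and 1067 normalized reads in WT 1 to 4 and 1019, 1165, 1082 and 1136 in cKO 1 to 4. The log2 difference was 0.11 (SE 0.09) and the groups overlapped. Glrx2, a glutaredoxin with mitochondrial forms, had 1837, 2193, 1492 and 2626 in WT 1 to 4 and 2920.3, 1525, 1835 and 1843 in cKO 1 to 4. It spread widely in both genotypes, and its log2 difference was -0.02 with the largest SE of the 9, 0.22. Its within-group SD of log2 values was higher than that of 86.9% of 15043 well-measured genes (mean log2 value 6 or more) in both WT and cKO. Gpx4, the selenoenzyme that reduces lipid peroxides in membranes, had 9658, 10993, 7603 and 9571 in WT 1 to 4 and 8289, 10294, 8994 and 8581 in cKO 1 to 4, with a log2 difference of -0.06 (SE 0.11).

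Sod2, the manganese superoxide dismutase of the matrix, was the steadiest member. It had 7993, 7266, 7870.4 and 7602 normalized reads in WT 1 to 4 and 8433, 7679.95, 8168 and 8238 in cKO 1 to 4. The libraries cKO 1, cKO 3 and cKO 4 were above all 4 WT libraries and cKO 2 lay among them, as it did for the named Nnt record. The log2 difference was 0.08 (SE 0.06), and 0.02 after quantile normalization.

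For comparison, the SD of log2 values of the named Nnt record was 0.34 in WT, above that of 86.1% of the 15043 genes, and 1.32 in cKO, above that of 99.5%. The sum of both records had an SD of 0.27 in WT, above 78.4% of genes, and of 0.54 in cKO, above 93.5%. Summing thus lowered the spread in both genotypes. Idh2 had an SD of 0.04 in WT, above only 2.92% of genes, and of 0.42 in cKO, above 88.5%.

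Levels of different genes were compared per kilobase of annotated exon, which depends on the annotation because long unused exons lower the value. In WT, Gpx4 was highest at 5485 ± 810.1 normalized reads per kb (SD, n = 4), followed by Prdx3 at 2047 ± 128, Sod2 at 768 ± 32.2, Idh2 at 540.1 ± 15.6, Txn2 at 443 ± 12.7 and Gsr at 371 ± 33.2. Glrx2 was at 232 ± 55.4, Me3 at 156 ± 8.996 and Txnrd2 at 97.6 ± 6.64. The Nnt sum was 270.1 ± 53.6 per kb of the single transcript Nnt-202 (3464 bases), which placed it between Gsr and Glrx2. The other genes were divided by all their annotated exon bases. Over the 7037 exon bases of the named record the Nnt value would be lower, so its place in the order depends on this choice. In cKO the Nnt sum was 361 ± 110.4 per kb. Over the 8 libraries the ranges of Gpx4, Prdx3 and Sod2 did not touch each other, nor did those of Me3 and Txnrd2, whereas each neighbouring pair from Sod2 down to Me3 overlapped, so the order within that stretch is not fixed by these libraries.

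Around these genes, 83 others that supply NADPH, carry the thioredoxin and glutathione systems, answer to the stress factor NRF2 or stand for mitochondrial content were compared by limma. None passed an adjusted p of 0.05 by limma, which 0.0191% of all genes tested passed, or by limma-voom. Brpf1 itself, lower in every cKO library than in any WT library, had an adjusted p of 0.132 by limma and did not pass either. At an unadjusted p under 0.05 there were 10 of 83 (12.0%), 9 higher and 1 lower in cKO, beside 8.67% of all genes tested, and 11 by limma-voom. Their adjusted p ran from 0.496 to 0.998. Groups did not overlap for 9 of 83 (10.8%), beside 4.92% of all genes, and the median log2 difference was 0.05 beside -0.02. The count of 10 fell to 5 without WT 1 and to 6 without cKO 3 or without cKO 4.

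Markers of cell types were compared in the same contrast, and 0 of them passed an adjusted p of 0.05 by limma. Of all genes tested, 8.67% had an unadjusted limma p under 0.05 and 47.3% had a positive difference. The summed levels of the lists given here overlapped between the genotypes. All 9 pan-neuronal genes had positive log2 differences (median 0.19, 5 of 9 at an unadjusted p under 0.05), and their summed level was 227230 to 254562 in WT and 254116 to 288714 in cKO. Positive differences were also more common among astrocyte markers (8 of 10, median 0.11, 1 at an unadjusted p under 0.05) and microglia markers (8 of 10, median 0.17, 2 at that p). The summed astrocyte level was 176888 to 232528 in WT and 214830 to 226388 in cKO, and the microglia level 14545.5 to 16229.7 and 14271.4 to 19076.4. All 11 oligodendrocyte markers had negative differences (median -0.27, 3 at an unadjusted p under 0.05, sum 122783 to 179914 in WT and 99958 to 154741 in cKO). So did 9 of 10 ependymal markers (median -0.46, 4 at that p, sum 1713 to 3456 in WT and 1557 to 2155 in cKO) and all 13 choroid plexus markers (median -0.72, 2 at that p). Medians were -0.10 for 8 endothelial, -0.03 for 8 CA1 pyramidal, -0.09 for 7 dentate granule and -0.01 for 7 CA3 and CA2 markers. At an unadjusted limma p under 0.05 were 1 endothelial (Ly6c1, 0.47) and 1 CA1 marker (Fibcd1, 0.34), both higher in cKO. The dentate granule list and the CA3 and CA2 list had 0. The part of these cell types in the small differences of the redox genes was not tested.

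**Figure D3:**
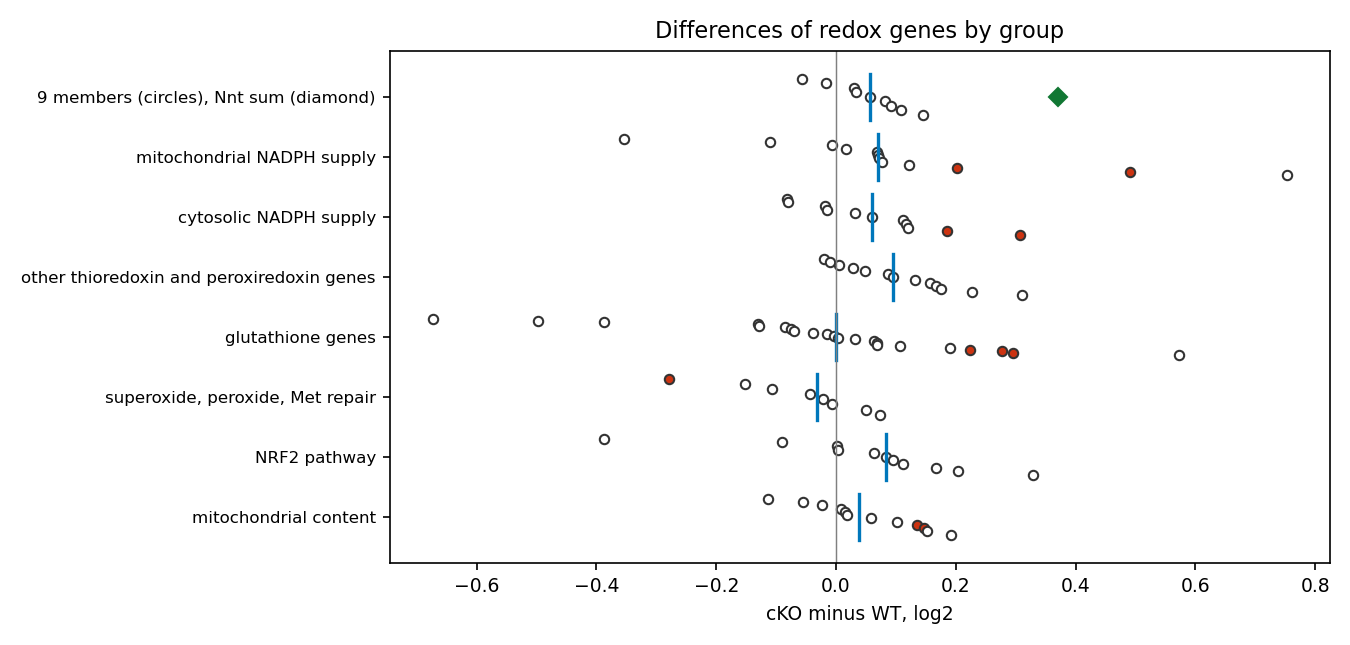
Log2 difference, cKO minus WT, of each gene (circles) in the member list without Nnt and in 7 related lists, with filled circles at an unadjusted limma p under 0.05 (not marked for members), a bar at the list's median and a diamond for the Nnt sum at 0.37. Most circles lie near 0, and the medians run from -0.03 to 0.09.

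Of the 12 further genes of mitochondrial NADPH supply, 2 had an unadjusted p under 0.05, both higher in cKO: Mthfd1l, a matrix enzyme of one-carbon metabolism, with a log2 difference of 0.49 (SE 0.15, adjusted p 0.496 by limma), and Slc25a11, the carrier of 2-oxoglutarate, with 0.20 (SE 0.08, adjusted p 0.519 by limma). Mthfd1l had 275 to 333 normalized reads in WT and 358 to 528 in cKO, without overlap. The most abundant gene of the list, Glud1 (glutamate dehydrogenase), had a log2 difference of 0.12 (SE 0.07). In cytosolic NADPH supply 2 of 11 had an unadjusted p under 0.05: Tkt (transketolase) with 3681 to 4023 in WT and 4151 to 4673 in cKO, and Aldh1l1, a folate enzyme known as an astrocyte marker, with 1544 to 1743 in WT and 1769 to 2631 in cKO. Their log2 differences were 0.19 (SE 0.07) and 0.31 (SE 0.12), and for Aldh1l1 0.18 without cKO 2, its highest library.

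In the glutathione list 3 of 22 had an unadjusted p under 0.05. Ggt7, of the gamma-glutamyltransferase family, had 3440.3 to 3646 normalized reads in WT and 3990.4 to 4803 in cKO, a log2 difference of 0.28 (SE 0.08, adjusted p 0.496 by limma). The authors' deposited table gives Ggt7 an FDR of 0.0355, the only one of the 83 under 0.05. Gstp1, a glutathione transferase, differed by 0.30 (SE 0.09) without overlap, and Gsta4, which handles lipid peroxidation products, by 0.22 (SE 0.09) with overlap. The most abundant of the list, Gstm5, had a log2 difference of -0.09 (SE 0.12). Glutathione transferases have close copies in the genome, so their reads may be split between them.

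The thioredoxin and peroxiredoxin list (0 of 13) and the NRF2 list (0 of 11) had no gene at an unadjusted p under 0.05. Their most abundant genes were Prdx5, with a log2 difference of 0.03 (SE 0.07), and Srxn1, the reductase of overoxidized peroxiredoxins, with 0.09 (SE 0.19), which ran from -0.01 without cKO 4 to 0.32 without cKO 1. Among 8 genes of superoxide, peroxide and methionine repair, Msrb3, a methionine sulfoxide reductase, was the only one of the 83 lower in cKO at an unadjusted p under 0.05. It had 330 to 369 normalized reads in WT and 260 to 300.2 in cKO, a log2 difference of -0.28 (SE 0.11, adjusted p 0.54 by limma), while cytosolic Sod1 differed by 0.05 (SE 0.08). Of 12 genes for mitochondrial content, the outer membrane channels Vdac1 and Vdac2 had log2 differences of 0.14 (SE 0.06) and 0.15 (SE 0.06), and the list's median was 0.04.

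The genes beside Nnt on the chromosome were compared to see how far its difference extends. Of the 5 nearest on each side in the reference table, 6 were tested: Fgf10 before Nnt, and Paip1, 4833420G17Rik, 3110070M22Rik, Tmem267 and Ccl28 after it. Gm16263 had at most 5.7 normalized reads and was not tested, and Gm47335, Gm10732 and Gm18361 were not analysed here. Mrps30, Emb and Parp8, which lie further before Nnt, were added after the values were seen. The log2 differences of these 9 ran from -0.21 (Parp8) to 0.26 (Ccl28), none had groups that did not overlap, and 0 of 9 passed an adjusted p of 0.05 or an unadjusted p of 0.05 by limma or limma-voom. Paip1, the nearest after Nnt, had 3089, 2589, 3176 and 2769.7 normalized reads in WT 1 to 4 and 2951, 2889, 3016 and 3224 in cKO 1 to 4. Fgf10, the nearest tested before it, had 829, 607, 777 and 629 in WT and 728, 609, 637 and 493 in cKO.

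**Figure D4:**
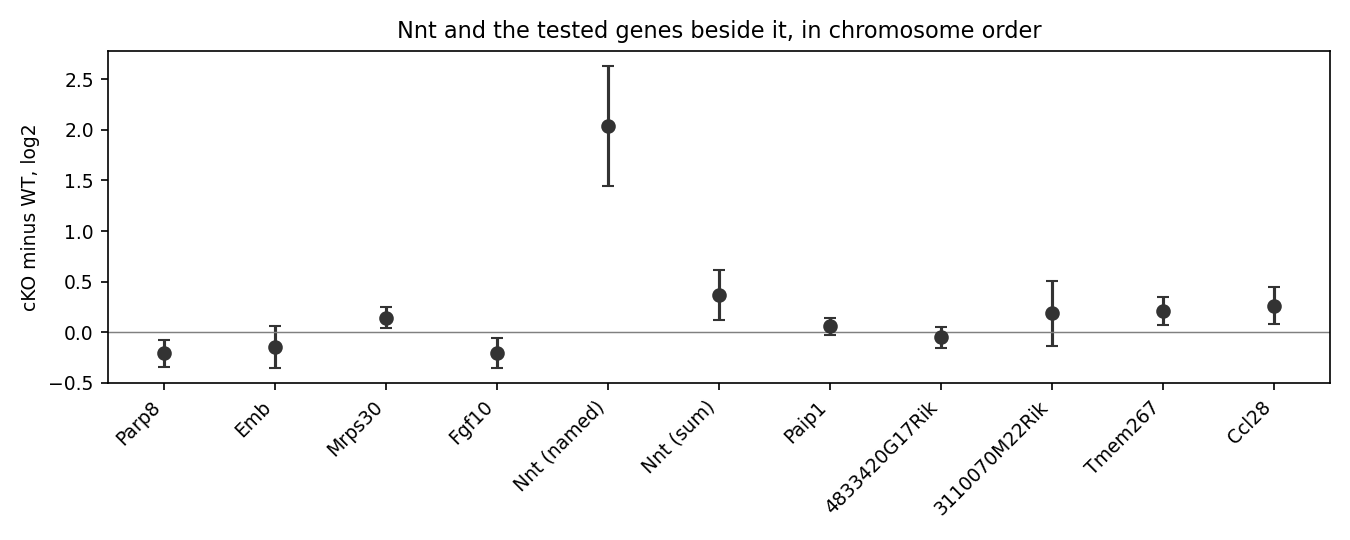
Log2 difference, cKO minus WT, with its SE for 9 tested genes beside Nnt in chromosome order (not to scale) and for Nnt by its named record and by the sum. The named record stands at 2.04 and the sum at 0.37, and the neighbours lie between -0.21 and 0.26.

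Other genes known to differ between C57BL/6 substrains were read library by library for the question of background. Gabra2, a GABA-A receptor subunit with an intronic deletion in C57BL/6J that lowers its expression, had 8023, 7603, 10493 and 5500.5 normalized reads in WT 1 to 4 and 8310.1, 3711, 4565 and 4568 in cKO 1 to 4. The libraries cKO 2, cKO 3 and cKO 4 were below all WT libraries and cKO 1 was among them, with a log2 difference of -0.61 (SE 0.27, unadjusted p 0.052 by limma). Among the cKO libraries Gabra2 and the Nnt sum had the same order, highest in cKO 1 and lowest in cKO 2, though Gabra2 was nearly equal in cKO 3 and cKO 4. Among the WT libraries the orders differed, with the Nnt sum highest in WT 2 and Gabra2 highest in WT 3. In cKO 3 and cKO 4 the Nnt sum was above all WT libraries while Gabra2 was below them. Whether the levels of Gabra2 and Nnt are linked was not tested. Wdfy1 was high in WT 2 (1848) and cKO 2 (1779) and lay between 843 and 1140.2 in the other 6 libraries. Entpd4 and Entpd4b, near-identical copies whose reads may be split, had log2 differences of 0.03 (SE 0.11) and 0.10 (SE 0.12).

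Mmrn1 had at most 9.5 normalized reads in any library and was not tested. None of the 4 tested genes Gabra2, Wdfy1, Entpd4 and Entpd4b passed an adjusted p of 0.05 or an unadjusted p of 0.05 by limma or limma-voom. The table has 1 value for each record and none for single exons or junctions, so the Nnt deletion itself was not analysed here, and substrain and genotype cannot be told apart from these levels.

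**Figure D5:**
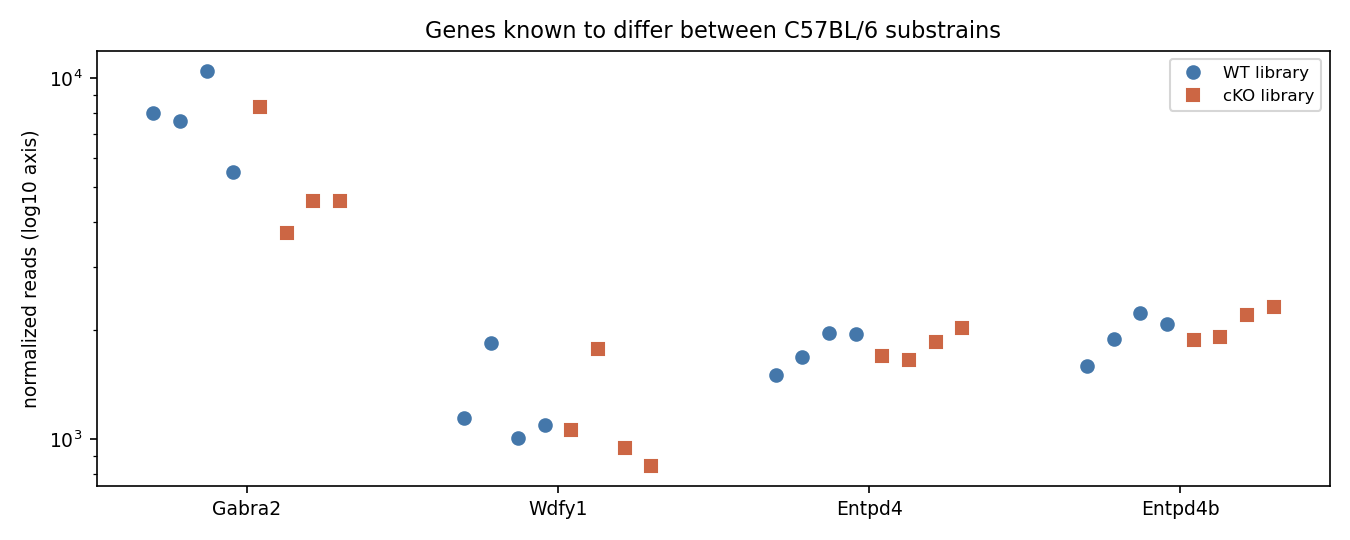
Normalized reads, on a log10 axis, of 4 genes known to differ between C57BL/6 substrains in the 4 WT (circles) and 4 cKO (squares) libraries, in the order 1 to 4. Gabra2 ranges from 3711 to 10493, Wdfy1 is high in WT 2 and cKO 2, and Entpd4 and Entpd4b vary little.

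As a description over 8 libraries, with no test, the genes whose log2 values ran most like the named Nnt record among 14894 named genes whose mean log2 value was 6 or more were Gm4735 (Pearson r 0.97), Sstr3 (0.97), Enpp5 (0.95), Tmem192 (0.94) and Clns1a (0.94). Sstr3, a somatostatin receptor, had 1300.4, 1261, 1255 and 1282 normalized reads in WT 1 to 4 and 1766, 1351, 1732 and 1515 in cKO 1 to 4. After the group means were removed the nearest were Copz1 (0.98), 6330408A02Rik (0.98) and Ifngr2 (0.97). The sum of both Nnt records had other neighbours in this ranking, led by Odc1, ornithine decarboxylase, at 0.96 and Vstm2b at 0.95. With 8 points and so many genes ranked, high values occur, and all points share the size factors of their libraries.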

How the data were processed

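The authors deposited 1 table with a log2 value per gene record and library, which equals log2(reads / size factor + 1): 100% of values gave whole reads (tolerance 0.001). A log2 fold change, a p-value and an FDR per record stand beside them, as the authors computed them. The submitters' processing notes name STAR, StringTie, DESeq2 and build mm9, and the sources used here give no version, role, annotation or strand setting. Some record identifiers are newer than that build, so no coordinates are printed, and GENCODE M21 (GRCm38) served for transcripts, exon lengths and overlaps and RefSeq's gene table for neighbours.

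The deposited log2 values (pseudocount 1) were compared, 4 cKO against 4 WT, with limma 3.58.1 (trend, robust) in R 4.3.3 for records with at least 1 normalized read in at least 4 libraries, with Benjamini-Hochberg adjustment over all 26135 and a threshold of 0.05. The procedure was tested on simulated data. Intervals are 95% Wilson intervals, and a count of 0 allows 3 reads. Figures were drawn with matplotlib 3.10.9.

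Members and lists were chosen with earlier results of these data known. Named beside the 10 members were up to 3 genes per list with the smallest unadjusted p under 0.05 and the most abundant one, 5 neighbours on each side, the substrain genes, the 5 genes most like Nnt and 3 after removing group means, and Brpf1. Summing the Nnt records, the further neighbours, Odc1, Vstm2b, Sept2 and the scans over record pairs and zero counts were added after seeing the data. Library numbers did not pair the groups: correlations of deviations between same-numbered libraries ran from -0.04 to 0.03. Alternatives were quantile normalization, no filter, a stricter filter (at least 10), a pseudocount of 0.1, limma-voom on recovered reads, array weights, a replicate block and leaving out each library. A substrain gene and a further neighbour are not reported here. Reads shared with processed pseudogenes were not examined.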

Additional observations from a re-analysis of the deposited data

Results flagged for a closer look

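Over 39 gene records and 78 groups of 4 libraries examined, 4 had a library far from the other 3 of its group; chance alone marks about 1 in 20 groups. The unnamed Nnt record had 0 normalized reads in cKO 3, against 535 to 986 in the other cKO libraries. Txnrd2 had 529 normalized reads in cKO 3, against 455 to 462. Prdx5, a peroxiredoxin, had 6233 in WT 3, against 6857 to 6979, and 7532 in cKO 2, against 6586 to 6738.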

How the results depend on the processing

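The log2 difference of the named Nnt record stayed positive under the 15 other settings chosen before the sum and was 1.57 to 2.61 when each library was left out. Summing both records, added after seeing the data, moved it to 0.37. The replicate block gave 2.04 for the named record and 0.37 for the sum and changed no call. What same-numbered libraries share is not stated. The block moved the pathway count at an unadjusted limma p under 0.05 from 10 to 9. Without each library in turn the sum ran from 0.25 to 0.64 and the pathway count from 5 to 13. No pathway gene, neighbour or further substrain gene passed an adjusted p of 0.05 under any of the 15 settings. Of 555 values for single genes other than Nnt, 553 moved by less than the SD between libraries. The exceptions, under quantile normalization, were Sod2 (0.02) and Vdac1 (0.07). This count says little about stability. The filters and the replicate block leave the difference itself unchanged, and leaving out a library can shift a group mean by only part of that SD. Precision is limited by 4 libraries a group. For Nnt it may also be limited by how reads were assigned between records that share 3339 exon bases. The part of read assignment in the Nnt values was not tested.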

Other observations

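Several redox genes outside the members had a library unlike the others, listed here after their values were seen. Gpx3, a secreted glutathione peroxidase, had 3735 normalized reads in WT 1 and 293 to 564 in the other 7 libraries. Gpx1, the cytosolic and mitochondrial peroxidase, had 468 in WT 3 and 1501 to 2199 elsewhere. Gclm, a subunit of the enzyme that starts glutathione synthesis, had 544 in cKO 2 and 1923 to 2721 elsewhere. Nadk2, the mitochondrial NAD kinase that forms NADP, had 966 in WT 1 and 1130.5 in WT 4, and 2339 to 3362 in the other 6 libraries.

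Of 14894 genes ranked, Zfp346 ran most opposite to the named Nnt record, with a Pearson r of -0.98 over 8 libraries. It had 1553, 1537, 1733 and 1527 normalized reads in WT 1 to 4 and 659, 1583, 385 and 900.1 in cKO 1 to 4. Its high level in cKO 2, the cKO library in which the named Nnt record was lowest, follows from this choice and is no separate result. Of the 7 records at 0 in 1 library and at 100 or more in the others, 3 share exon bases on the same strand with another record of the table, beside 8.37% of 13483 records with many reads. Tuba1c, a tubulin gene, was the most abundant of the 7, with no read in WT 1 and 4255 to 5460.5 normalized reads elsewhere. cKO 2 was the library far from its group in 405 of 15043 well-measured genes (2.69%), the most of the 8 libraries. WT 3 (2.20%) and WT 1 (2.11%) were close behind.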
